A study of Mus musculus with 2 samples.

Results

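The proteasome subunit genes of the mouse were described in DNase-seq libraries of aged cerebral cortex, an assay in which stretches of open chromatin appear as peaks because the enzyme DNase I cuts them more readily. Members were the autosomal protein-coding genes of the GENCODE M21 annotation whose symbols are Psma, Psmb, Psmc or Psmd followed by a number, and 38 of 20807 autosomal protein-coding genes met this rule. Psmd10, on the X chromosome, was the 1 gene with such a symbol outside the autosomes. The tissue was right cerebral cortex of adult B6CASTF1/J female mice aged 18 to 20 months, a first-generation hybrid strain, with 2 biological replicates in 1 group. The labels name no treatment and the study holds no control group, so no test between groups was possible and values are given per replicate. The labels carry 1 donor identifier for both replicates and separate biosample identifiers. They do not say that the replicates are different animals, so the variation between replicates may be technical in part.

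The proteasome is the large protease that destroys proteins tagged with ubiquitin. Its core particle is a barrel of stacked rings: the outer rings hold the alpha subunits (Psma genes), which gate the entrance, and the inner rings hold the beta subunits (Psmb genes), of which Psmb5, Psmb6 and Psmb7 carry the cutting sites. The regulatory particle caps the barrel, with a ring of ATPases (Psmc genes) that unfolds and threads the substrate and non-ATPase subunits (Psmd genes) that bind and remove ubiquitin. In immune cells, and in other cells under interferon, Psmb8, Psmb9 and Psmb10 take the places of Psmb5, Psmb6 and Psmb7 and form the immunoproteasome, known for making peptides for display on class I MHC molecules. Psmb11 replaces Psmb5 in the cortical epithelium of the thymus, and Psma8 replaces Psma7 in male germ cells. Nerve cells depend on the constitutive form for the turnover of synaptic and damaged proteins.

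A promoter reached 500 bp to each side of every annotated transcription start site of a gene. Its value was the deposited signal of the strongest peak that touched this window, taken from the shorter of the 2 peak lists of each library. These lists held 86601 peaks in replicate 1 and 88482 in replicate 2. Depth is not stated by the files. All deposited signals were whole multiples of 1 step per library within a tolerance of 0.05 steps, and if a step is 1 read scaled per M (mega), the libraries held 201 M reads in replicate 1 and 112 M in replicate 2. The intervals below are exact 95% Poisson intervals on that reading and cover counting error only. Of the cell type markers examined, promoter peaks in both replicates were found for 3 of 3 genes of all neurons, 3 of 5 of excitatory cortical neurons, 2 of 3 of astrocytes and 1 of 3 of oligodendrocytes. They were found for 0 of 4 microglial, 0 of 2 endothelial, 0 of 3 lymphocyte, 0 of 2 germ cell, 0 of 1 thymic epithelial and 0 of 2 liver genes.

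A promoter peak was present in both replicates for 36 of the 38 members (94.7%), against 12289 of all 20807 autosomal protein-coding genes, or 59.1%. Members had a median of 5 annotated start sites, against 3 for all genes, and this difference was not adjusted for. All 31 constitutive subunits, all 3 immunoproteasome subunits and both assembly chaperones had one. Psma8 and Psmb11 had none in either replicate. Among the 36 members the strongest promoter peaks of the replicates overlapped in 36 cases (100%), against 94.4% of the genes that had promoter peaks in both. The corresponding share of genes with a peak in both replicates was 96.2% for cytosolic ribosomal protein genes (75 of 78) and 88.4% for nuclear oxidative phosphorylation genes (84 of 95).

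The members had promoter peaks of medium strength, within a narrower range than all genes. Their median signal was 2.78 in replicate 1 and 3.62 in replicate 2, against 2.24 and 3.28 for all 12289 genes. Among the genes that had a promoter peak in the same replicate, the median member stood at percentile 63.1 in replicate 1 and 58.2 in replicate 2. No member fell below percentile 25 in either replicate. Between percentiles 25 and 50 lay 11 members in each replicate, and above percentile 75 lay 12 in replicate 1 and 11 in replicate 2. The highest and lowest members lay 4.63-fold apart in replicate 1 and 3.69-fold apart in replicate 2, while the upper and lower quartiles were 1.85-fold and 1.65-fold apart, against 2.70-fold and 2.40-fold among all genes. Ribosomal protein genes had higher medians of 3.18 in replicate 1 and 4.53 in replicate 2, and oxidative phosphorylation genes had 2.82 and 4.36. The narrow range was not particular to the members. Ribosomal protein genes had quartiles of 2.35 and 4.25 in replicate 1 and 3.45 and 6.04 in replicate 2. Oxidative phosphorylation genes had 2.23 and 3.59, and 3.38 and 5.16, and the members had 1.99 and 3.68, and 2.97 and 4.90.

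**Figure D1:**
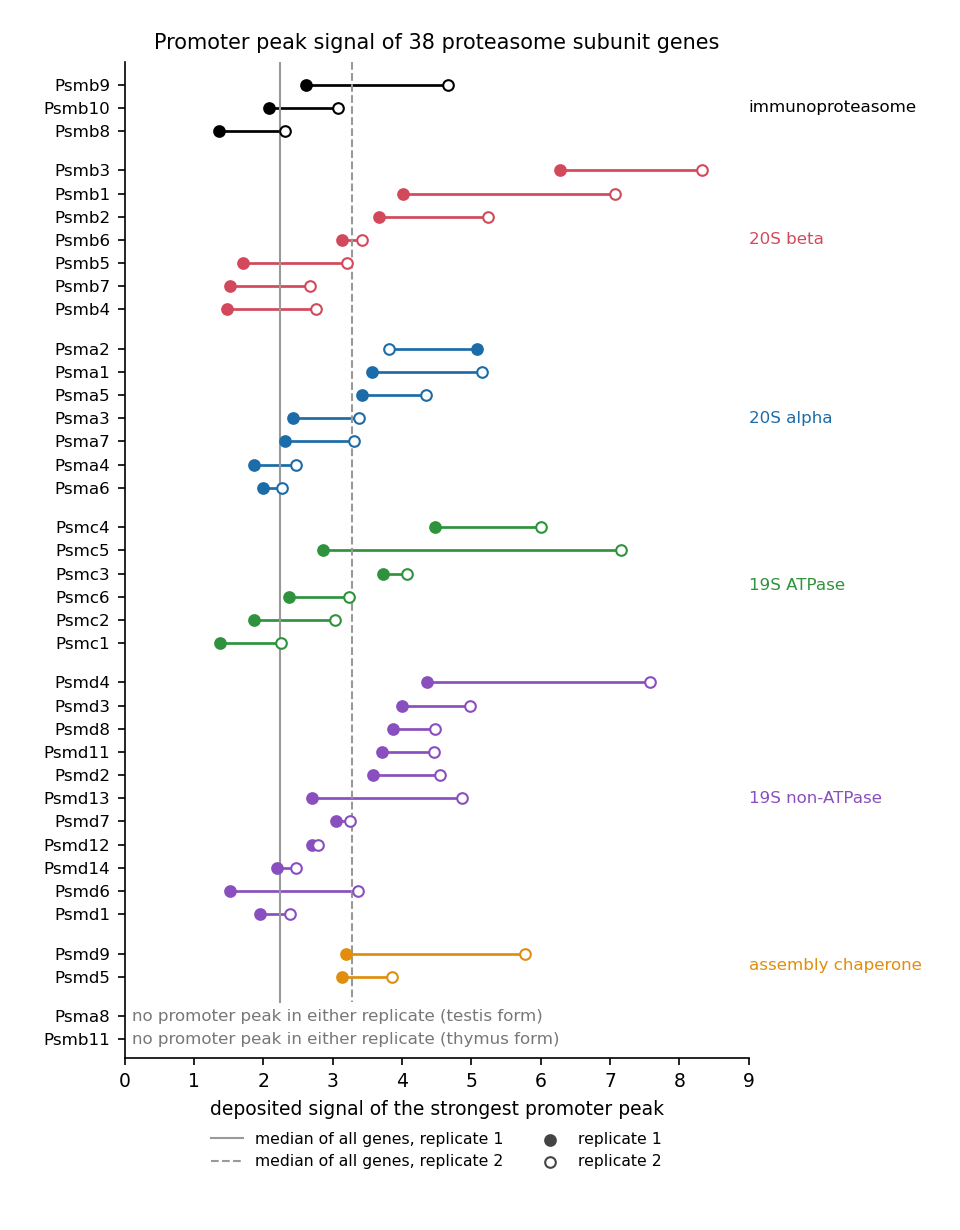
Signal of the strongest promoter peak (horizontal axis, deposited units) for each proteasome subunit gene, grouped by class, with replicate 1 as filled points, replicate 2 as open points and lines joining the replicates. Vertical lines mark the medians of all autosomal protein-coding genes with a promoter peak in both replicates, 2.24 and 3.28. Psmb3 reaches 6.28 and 8.33, Psma2 is the 1 member with its filled point to the right, and Psma8 and Psmb11 have no value.

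Member promoters were simpler in layout than those of all genes, a trait largely shared by ribosomal protein and oxidative phosphorylation genes. In replicate 1, 29 of the 36 members (80.6%) had a single promoter peak, and 28 (77.8%) in replicate 2, against 53.9% and 50.3% of all genes. These shares were 70.7% and 68.0% for ribosomal protein genes and 71.4% and 65.5% for oxidative phosphorylation genes. The midpoint of the strongest peak lay within 100 bp of a start site in 33 members (91.7%) in replicate 1 and 35 (97.2%) in replicate 2, against 70.6% and 69.7% of all genes. It did so in 88.0% of ribosomal protein genes in both replicates, and in 89.3% and 88.1% of oxidative phosphorylation genes. The median number of start sites was 5 for members, 3 for all genes, 6 for ribosomal protein genes and 4 for oxidative phosphorylation genes. More start sites make a near one likelier, and this was not adjusted for. The midpoint lay upstream of the nearest start site in 29 members (80.6%) in replicate 1 and 26 (72.2%) in replicate 2, close to the 74.4% and 74.0% of all genes. The median width was 220 bp in both replicates, against 240 bp for all genes, and widths ran from 160 to 380 bp in replicate 1 and from 60 to 340 bp in replicate 2. Both edges were identical in the replicates for 9 members, and the share over all genes was not computed. Among the 30 members with a promoter sequence in the RefSeq table used here, median GC content of the strongest peak was 62.0% in both replicates, against 65.3% and 65.0% over all genes with such a sequence.

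Footprints are short stretches inside a peak that are cut less than their surroundings, as where a bound protein shields the DNA. All footprints in the deposited lists carry a false discovery rate threshold of 0.01. The median member peak held 4 footprints in each replicate, and the median over all genes was also 4. No member peak lacked a footprint, while 1.29% of genes lacked one in replicate 1 and 1.56% in replicate 2. The strongest peaks of the members held 152 footprints in replicate 1, of which 108 overlapped a footprint of replicate 2, and 137 in replicate 2, of which 98 overlapped one of replicate 1. This overlap was not computed over all genes, so whether member footprints recur more or less often than others is not known. By the sum over both replicates, the 3 members with the most footprints were Psmd3, a lid subunit with 7 in replicate 1 and 6 in replicate 2, Psmc1, an ATPase with 6 and 6, and Psmd11, a lid subunit with 5 and 7.

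The 3 immunoproteasome promoters had median percentiles of 47.7 in replicate 1 and 48.6 in replicate 2, against 64.7 and 54.7 for the 31 constitutive subunits. These medians are the values of Psmb10, which rest on an internal peak described below. Psmb8 stood at percentiles 28.9 and 34.6, and Psmb9 at 59.7 and 75.3. Psmb8, the interferon-inducible counterpart of the chymotrypsin-like Psmb5, had 1.36 in replicate 1 (95% interval 1.20 to 1.53) and 2.31 in replicate 2 (2.04 to 2.61). Psmb5 had 1.71 (1.53 to 1.90) and 3.21 (2.89 to 3.56). Psmb8 was the lower of the pair in both replicates, with a log2 ratio of -0.33 in replicate 1 and -0.48 in replicate 2 (mean -0.40 ± 0.10, SD, n = 2), a difference larger than the spread between replicates. Psmb9, the counterpart of the caspase-like Psmb6, had 2.62 in replicate 1 and 4.65 in replicate 2, against 3.14 and 3.42 for Psmb6. The direction of this pair differed between replicates, with log2 ratios of -0.26 and 0.44 (mean 0.09 ± 0.50, SD, n = 2), so the pair did not differ beyond the spread between replicates. Psmb10, the counterpart of the trypsin-like Psmb7, had 2.08 in replicate 1 and 3.08 in replicate 2, against 1.52 and 2.67 for Psmb7. The log2 ratio of Psmb10 over Psmb7 was 0.45 (0.24 to 0.67) in replicate 1 and 0.20 (-0.03 to 0.43) in replicate 2, with a mean of 0.33 ± 0.18 (SD, n = 2). With 2 replicates in 1 group no permutation test applies to these ratios.

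The value of Psmb10 rested on an internal peak and not on the start of its coding transcript. The gene is transcribed on the minus strand, and its protein-coding transcript starts at chr8:105938444 (mm10). The strongest peak covered chr8:105936981-105937240 in replicate 1 and chr8:105936941-105937220 in replicate 2. It lay over the intron between exons 4 and 5 and reached into exon 5, with its midpoint 1334 bp and 1364 bp downstream of the coding start. GENCODE annotates a retained-intron transcript start there, at chr8:105937038. Within 500 bp of the coding start the strongest peaks were 0.661 in replicate 1, at chr8:105938001-105938100, and 0.918 in replicate 2, at chr8:105938381-105938571. These 2 peaks did not overlap, with midpoints 394 bp downstream and 32 bp upstream of the coding start. Replicate 1 had no peak over the coding start itself. The mean ratio that follows therefore joins 2 different sites. On start sites of protein-coding transcripts alone, a choice made after the data were seen, the log2 ratio of Psmb10 over Psmb7 was -1.20 in replicate 1 and -1.54 in replicate 2 (mean -1.37 ± 0.24, SD, n = 2), so the direction of this pair depends on which transcripts are counted. The same choice left the value of the other 35 of 36 members as it was. The libraries are of whole tissue, in which fewer cells with an open site and a less open site in each cell cannot be told apart. Of the 4 microglial markers, C1qa, P2ry12 and Csf1r had no promoter peak in either replicate, and Cx3cr1 had one of 0.263 in replicate 1 alone. Outside that list, Aif1 and Irf8, which microglia also express, had promoter peaks in both replicates. Aif1 had 0.820 in replicate 1 and 1.29 in replicate 2, and Irf8 had 1.01 in each. Which cells gave the immunoproteasome signals was not tested.

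**Figure D2:**
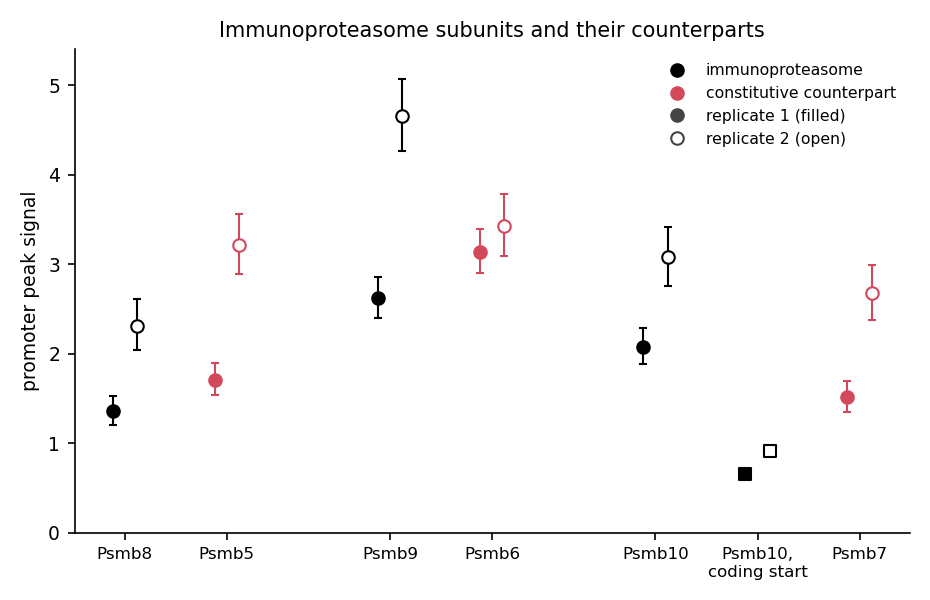
Signal of the strongest promoter peak (vertical axis, deposited units) of each immunoproteasome subunit in black beside its constitutive counterpart in red, with replicate 1 filled and replicate 2 open. Bars are exact 95% Poisson intervals and cover counting error only. Squares without bars give Psmb10 near its coding start, from peaks that do not overlap between the replicates. Psmb8 lies below Psmb5 in both replicates, Psmb9 and Psmb6 change order, and Psmb10 lies above Psmb7 only with its internal peak.

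The sequences under these peaks are shown because they hold the footprints that the immunoproteasome and catalytic promoters shared between replicates. Each is the stretch common to the strongest peaks of both replicates, ended no more than 50 bases after the start site, from the mouse reference GRCm38.p6 (mm10), written 5′ to 3′ on the strand of the gene. Psmb8 and Psmb6 are on the plus strand, and Psmb9, Psmb10 and Psmb5 on the minus strand. Psmb7, whose peak held 3 footprints in each replicate, is not shown. It had no promoter sequence in the RefSeq table, so its peak was not searched for motifs. Capitals mark bases inside footprints of both replicates. Positions count from the annotated start nearest the peak, which for Psmb9, Psmb6 and Psmb10 is that of a transcript not annotated as protein-coding. The letters are reference bases, and the CAST/EiJ copy in these hybrid mice may differ.
Psmb8 chr17:34197561-34197760: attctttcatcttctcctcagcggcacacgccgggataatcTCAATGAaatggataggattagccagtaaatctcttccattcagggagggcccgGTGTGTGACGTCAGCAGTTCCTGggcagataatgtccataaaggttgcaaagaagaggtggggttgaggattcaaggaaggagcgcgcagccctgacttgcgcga
Psmb5 chr14:54617972-54618120: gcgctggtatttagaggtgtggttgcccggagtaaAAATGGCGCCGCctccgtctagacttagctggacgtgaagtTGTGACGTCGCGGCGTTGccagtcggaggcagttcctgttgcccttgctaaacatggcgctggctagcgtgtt
Psmb9 chr17:34187341-34187520: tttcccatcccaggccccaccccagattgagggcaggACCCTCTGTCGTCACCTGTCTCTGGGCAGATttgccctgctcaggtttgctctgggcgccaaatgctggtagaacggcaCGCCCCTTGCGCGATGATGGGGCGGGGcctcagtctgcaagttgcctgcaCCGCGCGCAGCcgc
Psmb6 chr11:70525241-70525417: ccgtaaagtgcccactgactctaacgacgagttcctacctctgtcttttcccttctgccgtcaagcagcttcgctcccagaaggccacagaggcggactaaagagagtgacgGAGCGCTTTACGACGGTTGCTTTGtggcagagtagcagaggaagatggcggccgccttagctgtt
Psmb10 chr8:105936988-105937220: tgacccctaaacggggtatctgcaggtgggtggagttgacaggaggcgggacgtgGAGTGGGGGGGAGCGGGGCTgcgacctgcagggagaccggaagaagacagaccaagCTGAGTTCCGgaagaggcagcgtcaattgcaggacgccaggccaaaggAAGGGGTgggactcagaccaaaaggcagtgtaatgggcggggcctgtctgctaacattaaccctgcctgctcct

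In Psmb8 the longer shared footprint ran from base -65 to -43 before the start site and held TGACGTCA, the cAMP response element recognised by CREB and ATF factors. That motif was added to the search after these letters had been read. It occurred in the strongest peak of 1 of 30 members (3.33%), against 4.04% of all genes in replicate 1. In Psmb5 a footprint from -22 to -5 held the letters TGACNNNGC, the core of the antioxidant response element. That element is known as the target of NFE2L1, which raises the output of proteasome genes when the protease is inhibited. Psmb9 had a footprint with GGGCGG, the core of the Sp1 site, from -39 to -13. Its strongest peak also lay in the promoter of Tap1, the transporter that loads peptides into the endoplasmic reticulum, and the values 2.62 and 4.65 are therefore those of both genes. Psmb6 and Psmb10 had no motif of the search wholly inside a footprint of both replicates.

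The thymus form and the germ cell form were the 2 members without a promoter peak. No peak of either shorter list lay within 500 bp of a Psmb11 start site. The nearest was 3313 bp away in replicate 1 and 3293 bp in replicate 2, and it was the promoter peak of its neighbour and counterpart Psmb5. Bases with a false discovery rate under 0.05 numbered 135 in replicate 1, the lowest rate being 0.00441, and 0 in replicate 2. For Psma8 the nearest peak was 22811 bp away in both replicates, with a signal of 1.05 in replicate 1 and 2.07 in replicate 2. Its promoter held 0 such bases in replicate 1 and 7 in replicate 2, with a lowest rate of 0.0450. Psma7, the constitutive counterpart of Psma8, had 2.31 in replicate 1 and 3.30 in replicate 2. The marker genes of germ cells, Ddx4 and Sycp3, and of thymic epithelium, Foxn1, likewise had no promoter peak.

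Among the beta subunits of the core, Psmb3, a structural subunit, had the highest promoter signal of all members. It had 6.28 in replicate 1 and 8.33 in replicate 2, at percentiles 97.8 and 98.6 of the genes that had a promoter peak. Psmb1, also structural, followed with 4.01 and 7.07, and its peak was shared with Tbp, the TATA-binding protein gene. A separate peak at another protein-coding start of Psmb1 had 2.77 and 4.14, the values that the longer peak lists gave for this gene. On that peak Psmb1 would lie below Psmb2, which had 3.67 and 5.23. The lowest beta subunits were Psmb4 with 1.47 and 2.76 and Psmb7 with 1.52 and 2.67. The catalytic subunits Psmb5, Psmb6 and Psmb7 had medians of 1.71 and 3.21, against 3.14 and 3.42 for all 7 constitutive beta subunits. The subunits of this ring, which are present in equal number in the core particle, had promoter signals up to 4.27-fold apart in replicate 1 and 3.11-fold apart in replicate 2.

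Among the 7 alpha subunits, Psma2 had 5.08 in replicate 1 and 3.81 in replicate 2, and Psma1 had 3.57 and 5.15. Psma6 with 2.00 and 2.27 and Psma4 with 1.86 and 2.47 were the lowest. The class medians were 2.43 and 3.38. The strongest peaks of 3 alpha genes also lay in the promoter of another protein-coding gene: Mrpl32 for Psma2, AY074887 for Psma4 and Ss18l1 for Psma7.

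Among the 6 ATPases, Psmc4 had 4.47 in replicate 1 and 6.0 in replicate 2, and Psmc5 had 2.86 and 7.15. Psmc1 with 1.38 and 2.26 and Psmc2 with 1.87 and 3.03 were the lowest, and the class medians were 2.61 and 3.65. Psmc6 had 2.37 and 3.23. All 6 had a single promoter peak in both replicates. Psmc5 shared its peak with Ftsj3, and Psmc2 with Dnajc2.

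Among the 11 non-ATPase subunits, Psmd4, a ubiquitin receptor, had 4.35 in replicate 1 and 7.58 in replicate 2. Psmd3 had 3.99 and 4.98. By the mean of the log2 values the lowest were Psmd1, the large scaffold of the base, with 1.95 and 2.39, and Psmd6 with 1.52 and 3.36. The peak of Psmd1 was 160 bp wide in replicate 1 and 60 bp in replicate 2. Psmd14, the deubiquitinase of the lid, had 2.20 and 2.47. Psmd13 shared its peak with Sirt3. The class medians were 3.04 in replicate 1 and 4.46 in replicate 2. The assembly chaperones Psmd5 and Psmd9, which help to build the base and leave the finished particle, had 3.13 and 3.86 for Psmd5 and 3.19 and 5.77 for Psmd9. In all, 8 of 36 members (22.2%) shared the strongest peak with the promoter of another protein-coding gene, against 19.1% of all genes.

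The order of the members was similar in the replicates. The Spearman correlation of promoter signal between the replicates was 0.82 over the 36 members and 0.93 over 12289 genes, given as a description. Signal was higher in replicate 2 for 35 of 36 members (97.2%), against 93.7% of all genes, and the median log2 ratio of replicate 1 over replicate 2 over all genes, -0.50, was subtracted to compare members. The centred median of the members was 0.04, with a range of -0.82 to 0.92 (SD 0.35 over the members, and 0.35 over all genes). The 3 members most in excess in replicate 1 were Psma2 at 0.92, Psmd12 at 0.45 and Psmd7 at 0.40. The 3 most in excess in replicate 2 were Psmc5 at -0.82, Psmd6 at -0.65 and Psmb5 at -0.41. Psmd12 had 2.69 in replicate 1 and 2.78 in replicate 2, and Psmd7 had 3.04 and 3.25. Psma2 was the only member with a higher signal in replicate 1. Its peak was also placed differently, with the midpoint 110 bp upstream of the start site in replicate 1 and 20 bp upstream in replicate 2 and 160 bp shared, and it held 7 footprints in replicate 1 and 2 in replicate 2.

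**Figure D3:**
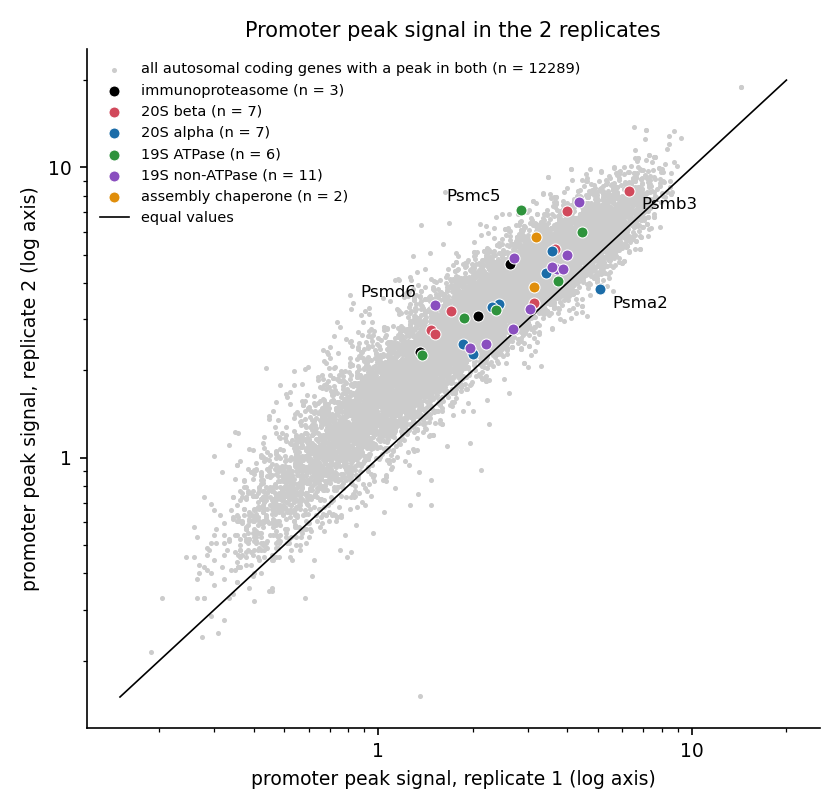
Promoter peak signal in replicate 1 (horizontal, log axis) and replicate 2 (vertical, log axis) for 12289 autosomal protein-coding genes in grey and the 36 members with a peak in both replicates in colour by class. The black line marks equal values. Most points lie above the line, Psma2 lies below it, and Psmc5 and Psmd6 lie near the upper edge of the cloud.

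Sequences of 5 further promoters are shown for the motifs inside their footprints: Psmb3 as the strongest member, Psma2 as the member with the largest replicate difference after centring, Psmc6 for an ETS site, and the chaperones Psmd5 and Psmd9. They are written in the same way, with capitals for bases inside footprints of both replicates. Psmd5 is on the minus strand and the others on the plus strand.
Psmb3 chr11:97703221-97703440: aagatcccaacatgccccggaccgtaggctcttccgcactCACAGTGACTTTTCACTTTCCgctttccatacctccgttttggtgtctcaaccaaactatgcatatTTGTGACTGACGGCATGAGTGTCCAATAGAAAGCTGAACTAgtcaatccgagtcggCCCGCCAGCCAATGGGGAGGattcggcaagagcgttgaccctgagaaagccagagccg
Psma2 chr13:14613101-14613260: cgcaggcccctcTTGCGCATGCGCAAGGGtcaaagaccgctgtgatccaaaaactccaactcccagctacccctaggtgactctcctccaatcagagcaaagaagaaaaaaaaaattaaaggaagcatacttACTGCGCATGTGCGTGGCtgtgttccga
Psmc6 chr14:45329661-45329838: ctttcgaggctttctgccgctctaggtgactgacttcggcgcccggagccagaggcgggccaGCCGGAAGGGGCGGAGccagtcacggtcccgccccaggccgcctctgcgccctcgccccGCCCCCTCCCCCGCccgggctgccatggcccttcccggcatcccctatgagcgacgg
Psmd5 chr2:34870912-34871120: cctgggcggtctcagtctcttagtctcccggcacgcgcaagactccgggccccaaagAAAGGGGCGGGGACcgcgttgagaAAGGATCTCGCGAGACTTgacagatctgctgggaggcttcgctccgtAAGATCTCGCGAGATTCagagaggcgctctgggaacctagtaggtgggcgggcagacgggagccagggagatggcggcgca
Psmd9 chr5:123228121-123228240: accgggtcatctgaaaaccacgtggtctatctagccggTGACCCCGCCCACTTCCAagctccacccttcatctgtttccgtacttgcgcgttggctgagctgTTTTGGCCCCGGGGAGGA

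In Psmb3 the shared footprints covered 82 bases. They held CCAAT, the core of the NF-Y site, at 50 and 8 bases before the start site, and GAAANNGAA on the opposite strand, the core of the interferon response element ISRE, at -127. In Psma2 the footprint from -127 to -111 held GCATGCGC on both strands, part of the palindrome of nuclear respiratory factor 1, the activator of many housekeeping and mitochondrial genes. In Psmc6 a footprint from -65 to -50 held the ETS core CCGGAAG beside GGGCGG. In Psmd5 a pair of footprints, from -77 to -60 and from -30 to -14, each held CTCGCGAG, the core of the site of BANP, a factor of CpG-island promoters. This motif too was added after the letters had been read, and among the 30 members whose peaks were searched Psmd5 alone held it. In Psmd9 a footprint from -31 to -14 held TGACNNNGC overlapping GGGCGG on the opposite strand.

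Over all members, the motif furthest in percentage points from the level of all genes was CCGGAAG, searched on both strands like the others. It occurred in 11 of 33 RefSeq promoter windows of 31 members (33.3%), against 2322 of 19174 windows of all genes (12.1%). These windows run from 250 bases before to 50 bases after the start, and those of Psmb8 and Psmb10 lie beside and not under the strongest peaks. In the strongest peaks it occurred in 12 of 30 members (40.0%) in replicate 1 and 11 (36.7%) in replicate 2, against 19.1% and 18.7% of all genes. None of the 3 immunoproteasome windows held it, and the peak of Psmb10 did. The antioxidant response core TGACNNNGC was no more frequent than elsewhere in the windows, at 15.2% against 13.2%, and stood at 20.0% in the peaks of both replicates, against 14.4% and 14.2%. The 6 members with it in a peak had it inside a footprint of both replicates in 2, Psmb5 and Psmd9. Most sites of the other common motifs in the strongest peaks were likewise not wholly inside a footprint of both replicates. For CCGGAAG 2 of 15 sites were, for CCAAT 3 of 17 and for GGGCGG 13 of 38. In the windows of members, CCAAT occurred in 36.4% against 37.5%, GGGCGG in 54.5% against 48.3%, GCATGCGC in 6.06% against 3.67%, and AAGATGGCG, the YY1 site, in 6.06% against 1.91%. TATAAA occurred in 12.1% of both, GAAANNGAA in 15.2% against 8.11%, TGACGTCA in 0% against 2.36%, and CTCGCGAG in 3.03% against 1.25%. These are matches of letters and not of bound factors, and with 33 windows a difference of a few percent is 1 or 2 windows. Motif shares of ribosomal protein and oxidative phosphorylation genes were not computed. Whether the share with CCGGAAG is particular to the members is therefore not known.

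**Figure D4:**
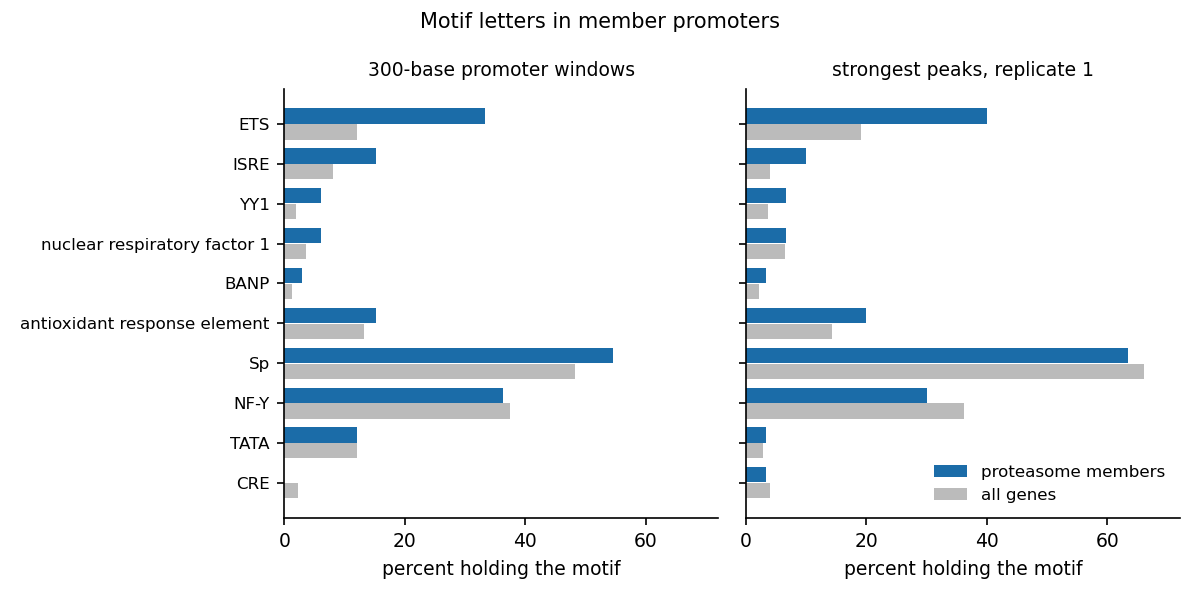
Percent of sequences that hold each motif on either strand (horizontal axis) for proteasome members in blue and all genes in grey, in promoter windows (left) and in the strongest promoter peaks of replicate 1 (right). The ETS bars stand furthest apart, 33.3% against 12.1% on the left and 40.0% against 19.1% on the right, and Sp and NF-Y bars are close.

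Genes that work with the proteasome had open promoters throughout. All 26 of 26 activators, chaperones, shuttles and regulators carried promoter peaks in each replicate, where 59.1% of all genes did, with medians of 2.56 in replicate 1 and 3.92 in replicate 2, against 2.24 and 3.28 for all genes. The strongest was Rad23b, a shuttle that carries ubiquitinated proteins, with 7.34 and 8.62. Nfe2l1, the transcription factor named above, had 5.91 and 7.16, and its relative Nfe2l2 had 1.29 and 1.28. The weakest was Psme1, a subunit of the interferon-inducible PA28 activator, with 0.820 and 0.927, while its partner Psme2 had 3.24 and 4.06. All 13 of 13 antigen processing genes had a peak in both, against the same 59.1%, with medians of 1.46 and 2.54 that lay below those of all genes. Among them Nlrc5, the activator of class I MHC genes, had 0.492 in replicate 1 and 0.713 in replicate 2. These genes were named after their values had been seen.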

How the data were processed

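DNase-seq was measured in 2 libraries of right cerebral cortex. The authors deposited, per library, 2 peak lists, footprints and false discovery rate intervals on mm10. Aligner and peak caller: not given in the sources used here. Peak values are a signal that the authors deposited; its normalization is likewise not given. The deposited footprints carry 1 FDR p-value threshold of 0.01, and the deposited intervals list an FDR p-value below 0.05. The hybrid genome was given in reference coordinates, and reads of the CAST/EiJ copy may align less well, which was not tested.

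Genes and start sites came from GENCODE M21, sequences from GRCm38.p6 and RefSeq promoters of that assembly. All 33 member windows matched the genome, and 0 peaks ran past a chromosome end. A promoter reached 500 bp either side of any start site, and overlap meant at least 1 bp. Footprints counted where wholly inside the strongest peak. A peak near start sites of several genes counted for each. The members and lists were chosen with earlier results of these data known. Named were all special forms and their counterparts, the 2 highest and 2 lowest of each class of over 4 genes, members without a peak, the 3 largest replicate differences each way, the 3 with most footprints and members sharing a peak. One of the motifs searched is not reported here. Promoter assignment was tested on simulated data. The floor of 3 counts corresponds to a signal of 0.0149 in replicate 1 and 0.0267 in replicate 2. Python 3.11.15, numpy 2.4.6, pandas 2.3.3, scipy 1.17.1 and matplotlib 3.10.9 were used.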

Additional observations from a re-analysis of the deposited data

Results flagged for a closer look

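The longer peak list of replicate 1, which the comparisons above do not use, held a peak of signal 0.537 in the promoter of Psmb11, the thymus form. This is above the 0.0149 that 3 counts would give in that library, a low bar. The lowest strongest promoter peak among genes that had peaks in both shorter lists was 0.189 in replicate 1. The longer list of replicate 2 held none there, so the signal was seen in 1 of 2 replicates. Psma8 had no promoter peak in any of the 4 lists.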

How the results depend on the processing

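Of 116 alternative values, 106 stayed within the spread between replicates, the binomial interval or 1.5 times the count that applied to them, 7 moved beyond it and 3 reversed. Where the spread between the 2 replicates was the limit, either replicate alone always lies within it, unless a ratio changes sign. Those outcomes of leaving out a replicate were fixed in advance and say nothing about robustness. Many other values could hardly change, since settings that add or drop weaker peaks mostly leave the strongest peak in place. The log2 ratio of Psmb8 over Psmb5 was -0.40 in every alternative that kept both replicates. The limit of 1.5 times the count was also wide for 38 members. The 106 is therefore no measure of robustness. The count of members that had peaks in both ran from 33 to 37 over all alternatives. It was 33 on the 5′ end of the gene record alone, where Psmd5, Psmd9 and Psma6 lost their peak, and 37 with the X chromosome included. The log2 ratio of Psmb10 over Psmb7 reversed to -1.37 on the 5′ end of the gene record and also on coding starts alone, and moved to 1.00 on the sum of all promoter peaks, since its internal peaks then add up or drop out. At -1.37 the Psmb10 peaks of the replicates did not overlap. The ratio of Psmb9 over Psmb6 ran from -0.26 without replicate 2 to 0.44 without replicate 1, and so reversed. The median width moved to 210 bp on the 5′ end alone and to 215 bp on coding starts. The mean of the replicates' median percentiles, 60.7, moved to 56.2 among the stronger 50% of peaks and to 55.3 on sums of peaks. The share of members with TATAAA moved to 3.33% in the strongest peaks of either replicate. For the replicate difference the spread over members served as the limit, and leaving out a replicate gives no value there. No paired analysis was possible because there is 1 group. Depth was inferred and not given, so its limit on weak sites was not tested.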
